A study of Mus musculus with 2 samples.

Results

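The genes described here are the nuclear genes for the respiratory chain and the ATP synthase of mitochondria. They were chosen by symbol alone, as the genes whose single symbol in the platform annotation starts with Ndufa, Ndufb, Ndufc, Ndufs or Ndufv and a digit, with Uqcr, with Cox and a digit or with Atp5, or is *Sdha*, *Sdhb*, *Sdhc* or *Sdhd*. The rule found 89 of the 18194 named genes on the array, and it used no measured value. They comprise 33 genes of complex I, 4 of complex II, 8 of complex III, 19 of complex IV, 17 of the ATP synthase (complex V) and 8 assembly factors, which help to build a complex without staying in it. The series asked which genes differ when G9a (gene *Ehmt2*), a methyltransferase for histone H3 lysine 9, is lost from mouse embryonic stem cells (ESCs). It holds 1 Affymetrix array of G9a-KO ESCs and 1 array of WT ESCs.

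The G9a-KO cells derive from TT2, an ESC line from a C57BL/6 by CBA F1 embryo, and by the design text carry a mutant G9a allele and a floxed allele from which Cre removed exons 26 and 27, the part for the catalytic core. The WT cells are TT2. The treatment text is the same on both samples and gives 800 nM 4-hydroxytamoxifen for 48 h and a further 48 h without the drug, so whether the WT cells received it is not told separately. According to the methods, G9a-KO ESCs were kept on inactivated embryonic fibroblasts in serum with LIF, whereas the labels of both samples give serum replacement with little serum and LIF. Because each group is a single array, nothing here has a replicate check, and no p-value, SE or interval was computed. Every difference is the log2 level in G9a-KO less that in WT, from the probe set of a gene with the highest mean, and every level is a log2 value after the 75th percentile of its own array was subtracted.

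Complex I takes electrons from NADH and complex II takes them from succinate. Both hand them to ubiquinone, complex III passes them on to cytochrome c and complex IV to oxygen. The proton gradient so built drives the ATP synthase. A few core subunits are encoded in mitochondrial DNA, but most subunits are nuclear genes, many of which have binding sites for NRF1, GABP (an ETS family factor) or YY1 in their promoters. ESCs carry few and immature mitochondria and lean on glycolysis, and respiration increases as they differentiate. Several complex IV subunits come in isoforms, with one gene used in most tissues and another in heart and skeletal muscle, in testis or under low oxygen.

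The promoters of these genes are of more than one kind, and 4 are shown because the results turn on them or on their isoform class. *Cox7b2*, a testis isoform, and *Cox7a1*, a heart and muscle isoform, had the highest differences, *Cox20*, an assembly factor, had the lowest, and *Cox6a1*, a ubiquitous isoform, was within 1.3-fold. Each sequence is the 250 bases before the RefSeq gene start in GRCm38.p6, 5′ to 3′ along the gene, at chr5:71548206-71548455 on the minus strand for *Cox7b2*, chr7:30183921-30184170 on the plus strand for *Cox7a1*, chr1:178318903-178319152 on the plus strand for *Cox20* and chr5:115348959-115349208 on the minus strand for *Cox6a1*. Capitals mark matches, on either strand, to the NRF1 letters (GCGC, any base, TGCGC), the ETS letters CCGGAAG and the YY1 letters AAGATGGC.
*Cox7b2*: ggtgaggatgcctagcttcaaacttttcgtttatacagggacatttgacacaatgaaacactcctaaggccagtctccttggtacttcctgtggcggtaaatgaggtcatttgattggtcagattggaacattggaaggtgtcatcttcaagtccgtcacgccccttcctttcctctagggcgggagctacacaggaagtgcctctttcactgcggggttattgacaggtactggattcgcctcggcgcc
*Cox7a1*: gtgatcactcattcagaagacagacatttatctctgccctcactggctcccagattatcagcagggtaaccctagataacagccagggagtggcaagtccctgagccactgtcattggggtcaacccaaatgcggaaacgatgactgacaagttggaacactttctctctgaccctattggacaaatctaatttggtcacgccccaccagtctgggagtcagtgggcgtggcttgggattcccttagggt
*Cox20*: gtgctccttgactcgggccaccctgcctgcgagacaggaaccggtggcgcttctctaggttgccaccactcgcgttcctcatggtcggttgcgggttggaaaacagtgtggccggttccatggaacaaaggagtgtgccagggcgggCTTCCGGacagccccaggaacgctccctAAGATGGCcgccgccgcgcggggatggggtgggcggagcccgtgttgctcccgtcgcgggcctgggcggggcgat
*Cox6a1*: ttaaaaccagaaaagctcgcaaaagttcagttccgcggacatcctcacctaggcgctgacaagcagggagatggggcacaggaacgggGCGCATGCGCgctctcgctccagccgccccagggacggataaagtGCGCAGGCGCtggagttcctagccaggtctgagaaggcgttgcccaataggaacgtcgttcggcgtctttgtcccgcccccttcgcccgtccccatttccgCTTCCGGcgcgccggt
The sequences of *Cox7b2* and *Cox7a1* hold no match in capitals, that of *Cox20* holds an ETS and a YY1 match, and that of *Cox6a1* holds 2 NRF1 matches and an ETS match.

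Of the 89 genes, 72 matched the promoter table, in windows of 300 bases that reach 50 bases past the start. The NRF1 letters were in 15 of these 72 genes (20.8%), against 5.19% of all 27025 genes in the table. The ETS letters were in 21 genes (29.2%, against 9.93%) and the YY1 letters in 11 genes (15.3%, against 3.19%). The stricter NRF1 palindrome, contained in the letters above with A at the open base, was in 4 genes (5.56%, against 1.07%). CpG dinucleotides numbered 19.5 per window at the median of the windows of these genes and 7 over all windows. The fewest were in *Cox8b* (2), *Cox7a1* (7), *Ndufc2* (8), *Cox7b2* (10) and *Cox6b2* (10), and all of these but *Ndufc2* are isoforms of restricted tissues. The median difference was 0.18 for the 15 genes with the NRF1 letters and 0.17 for the 57 without. It was 0.05 for the 4 genes with the stricter palindrome and 0.17 for the 68 without. It was -0.03 for the 21 genes with the ETS letters and 0.19 for the 51 without, and -0.04 for the 11 genes with the YY1 letters and 0.18 for the 61 without. A match describes the letters of a window, and binding was not measured.

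On the arrays, the genes as a set were slightly higher in G9a-KO ESCs, with a few single genes far from the rest. Of the 89 genes, 64 (71.9%) had a difference above 0, and 53.4% of all named genes did. The median difference was 0.21 (1.15-fold), against 0.04 over all named genes, so the set lay 0.17 above the array as a whole. By the 1.3-fold threshold that the study set for this pair, 16 of the 89 (18.0%) exceeded it in G9a-KO and 4 (4.49%) lay below it. Of all 18194 named genes, 17.4% were higher and 17.2% lower by the same rule. The share of higher genes was thus near that of the array, and the share of lower genes was below it. Over 2-fold, 2 genes were higher and 2 lower, where 4.61% and 3.76% of all named genes were. The differences were also closer together, with a robust SD of 0.22 over the 89 genes and 0.36 over all named genes. Neither the lean above 0 nor the narrow spread was particular to these genes. Of 54 cytosolic ribosomal protein genes, 70.4% lay above 0 and the robust SD was 0.11. The 40 proteasome genes (47.5% above 0) had 0.27, and the 76 mitochondrial ribosomal protein genes (35.5% above 0) had 0.29. The shares lower past 1.3-fold were 11.1%, 10% and 19.7% in that order.

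Bright genes spread more on these arrays, with a robust SD of 0.49 over the 6956 whose mean lay above the 75th percentile, and 81 of the 89 are among them. The comparison was therefore repeated over these genes, a set chosen after seeing the data. There, 15 of 81 (18.5%) were higher and 3 (3.70%) lower, against 21.1% and 23.2% of the 6956. Past 2-fold, 2 were higher and 2 lower, against 4.93% and 3.9%. The medians were 0.21 for the 81 genes and -0.01 for the 6956. The number of higher genes depended on the shift between the arrays. Centring each array on its median lowers every difference by 0.10 and leaves 6 of the 89 genes higher (*Cox7b2*, *Cox7a1*, *Cox6c*, *Cox18*, *Cox7c* and *Ndufs8*). It adds *Sdhb* and *Cox16* to the lower genes, for 6 in all, and over all named genes it gives 2365 higher and 4050 lower in place of 3172 and 3126. The 2365 and 4050 are 13% and 22.3% of the named genes. The values as deposited give 10 higher and 4 lower of the 89, against 14.7% and 19.9% of all. The study called a gene when any of its probes passed the fold, whereas here the brightest probe set decides. With the probe set of the largest absolute difference, the choice nearest to that rule, 20 of the 89 were higher and 7 lower, against 23.3% and 21% of all. Of the 20 genes past 1.3-fold, 10 stayed past it under every such alternative that gave a value, namely the 6 that median centring leaves and the 4 lower genes. The median of the set less that of all named genes stayed between 0.12 and 0.22 under every scaling, filter and probe set rule tried. The 75th percentile shift, no shift and median centring move all genes of an array alike, so they cannot change this value (0.17).

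**Figure D1:**
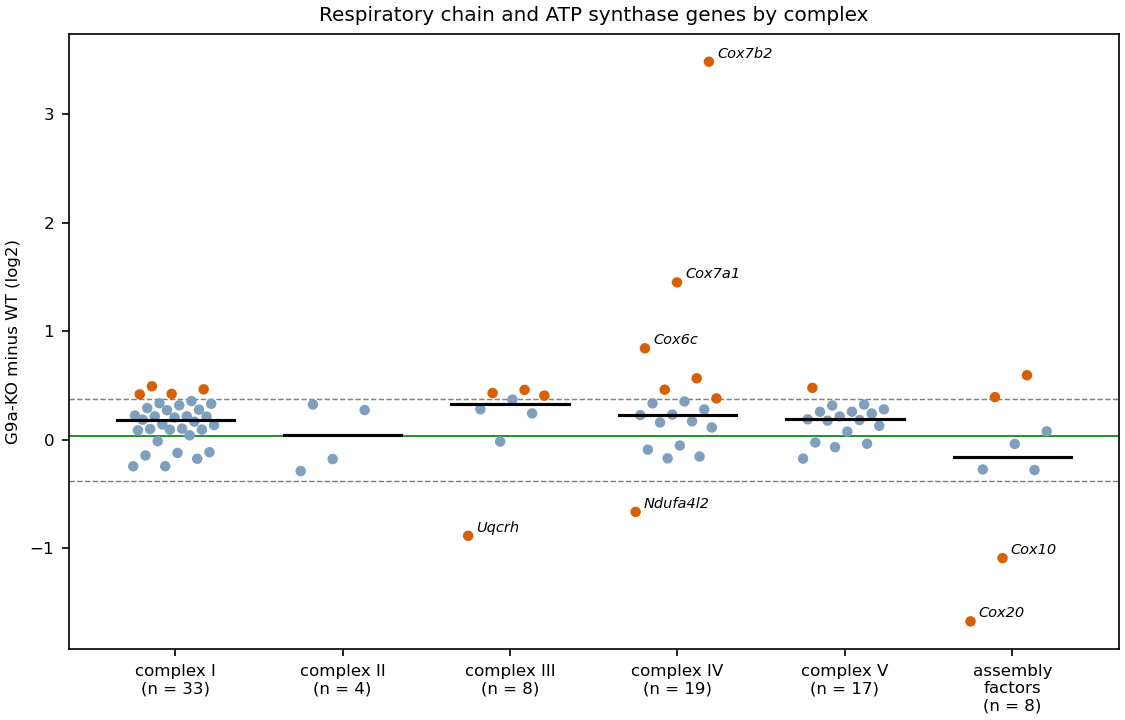
Difference, G9a-KO less WT (log2, on the vertical axis), of 89 genes by complex, 1 point per gene, with black bars at the median of each complex, dashed lines at 1.3-fold, a green line at the median of all 18194 named genes (0.04) and orange points past 1.3-fold. Most points of complexes I, III, IV and V lie above the green line, *Cox7b2* (3.48) and *Cox7a1* (1.45) lie far above it and *Cox20* (-1.67) and *Cox10* (-1.09) far below.

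Markers of other cell types were measured beside these genes. All 8 pluripotency markers lay above the array median in both cultures, with levels of 1.60 to 6.59 in G9a-KO and 1.77 to 5.98 in WT. Of these, *Zfp42* (1.73-fold) and *Pou5f1* (1.37-fold) were lower in G9a-KO, *Dppa5a* was higher (1.53-fold), and the median was -0.20. Primitive endoderm markers, which belong to an extraembryonic lineage, were over 2-fold higher in G9a-KO for 11 of 11 genes, with levels of -1.29 to 4.10 in G9a-KO and -3.04 to -0.86 in WT. Of the 8 fibroblast markers, 2 lay above the array median on each array and 3 were past 1.3-fold, all higher. Their levels ran from -4.55 to 3.31 in G9a-KO and from -4.61 to 1.71 in WT. Those 3 were *Col1a2* (-1.36 in G9a-KO and -2.19 in WT), *Fn1* (3.31 and 1.71) and *Lum* (-2.52 and -3.51). Of all named genes, 17.4% were over 1.3-fold higher, 17.2% over 1.3-fold lower and 4.61% over 2-fold higher. The other fibrillar collagens of the list, *Col1a1* (-2.41 in G9a-KO and -2.65 in WT) and *Col3a1* (-4.55 and -4.61), lay below the median on both arrays, whereas *Col1a2* lay above it. The part of these cell types in the differences described here was not tested. In bulk RNA, fewer cells of a type and less RNA per cell cannot be told apart. The brightest probe set of the targeted gene *Ehmt2* lay at 0.51 in G9a-KO and 2.05 in WT (2.90-fold lower), while a dim probe set gave -2.07 in G9a-KO and -2.27 in WT. Where these lie relative to exons 26 and 27 is not stated in the sources used here, so they are no check of the deletion.

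Complex I genes differed little and mostly in one direction. Of 33 genes, 26 had a difference above 0, with a median of 0.19 and a range of -0.24 to 0.49. Past 1.3-fold, 4 were higher (12.1%) and 0 lower, against 17.4% and 17.2% of all named genes. The highest were core subunits of the arm that carries electrons from NADH to ubiquinone. *Ndufs8*, an iron-sulphur subunit, lay at 4.88 in G9a-KO and 4.39 in WT (1.41-fold higher), and its 5 other probe sets gave differences of 0.29 to 0.55. *Ndufv1*, which binds the flavin that takes the electrons from NADH, lay at 4.54 in G9a-KO and 4.07 in WT (1.38-fold), and its other probe sets gave 0.44 and 0.42. Thus the probe sets of both genes all pointed the same way.

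The accessory subunits *Ndufa8* (4.04 in G9a-KO and 3.62 in WT, 1.34-fold) and *Ndufb6* (4.92 and 4.50, 1.34-fold) were the other complex I genes past the threshold. The 4 remaining core subunits measured were within 1.3-fold, namely *Ndufs1* (0.21), *Ndufv2* (0.09), *Ndufs3* (-0.01) and *Ndufs7* (-0.12), so the core subunits did not differ alike. *Ndufb1* (-1.14 in G9a-KO and -0.90 in WT) and *Ndufa2* (4.15 and 4.39), accessory subunits with a difference of -0.24 each, were the lowest. The X-linked genes *Ndufa1* and *Ndufb11*, both accessory subunits, differed by 0.36 and 0.14. *Ndufb4* lay below the median on both arrays by its only single-gene probe set (-4.09 in G9a-KO and -4.42 in WT), and its difference of 0.34 is therefore between dim values. A pair of bright probe sets that name it together with its copies *Ndufb4b* and *Ndufb4c* differed by 0.41 and 0.36 and cannot be assigned to 1 gene. *Ndufs6* and *Ndufa11* had no single-gene probe set here.

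Complex II, which is also an enzyme of the tricarboxylic acid cycle, had no gene past 1.3-fold. Its catalytic flavoprotein *Sdha* lay at 3.93 in G9a-KO and 3.66 in WT, but another bright probe set lay at 3.61 in G9a-KO and 3.69 in WT. The iron-sulphur subunit *Sdhb* lay at 3.48 in G9a-KO and 3.77 in WT. The membrane anchors went both ways, with *Sdhc* at 2.57 in G9a-KO and 2.25 in WT and *Sdhd* at 3.48 in G9a-KO and 3.65 in WT. The median of the 4 genes was 0.05, close to that of all named genes, and its sign depended on the scaling and the probe set rule.

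In complex III, 3 of 8 genes were higher (37.5%), 1 was lower (12.5%) and 4 were within 1.3-fold. Of all named genes, 17.4% were higher and 17.2% lower. *Uqcrq*, a small subunit, lay at 4.57 in G9a-KO and 4.11 in WT (1.38-fold higher). Its other probe set above the median differed by 0.18 and a pair of dim ones by 0.13 and 0.06, and the call was lost without the probe sets that can bind several transcripts (0.18) and with the mean over probe sets (0.21). The Rieske iron-sulphur protein *Uqcrfs1* lay at 4.28 in G9a-KO and 3.85 in WT (1.35-fold), and the core protein *Uqcrc1* at 4.84 in G9a-KO and 4.44 in WT (1.33-fold). The gene that ran against them was *Uqcrh*, the hinge protein that contacts cytochrome c1, at 3.77 in G9a-KO and 4.65 in WT (1.85-fold lower). Its other probe set gave 2.93 in G9a-KO and 3.71 in WT, so both showed the lower level. *Cyc1*, the cytochrome c1 itself, which the symbol rule does not take, differed by 0.21.

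The other members of complex III were within the threshold. *Uqcrb*, a subunit at the quinone site, lay at 6.04 in G9a-KO and 6.06 in WT, and *Uqcrc2*, the second core protein, differed by 0.28. *Uqcr10*, another small subunit, was just within it at 0.37, but its 2 other probe sets gave -0.50 and -0.73. The median over the 8 genes was 0.33, and it was 0.06 over the 6 genes left without the probe sets whose ID endings mark those that can bind several transcripts.

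Complex IV held the highest differences of the 89 genes, and they belonged to tissue-restricted isoforms. *Cox7b2*, the testis isoform of subunit 7B, lay at 1.89 in G9a-KO and -1.59 in WT (11.2-fold higher). The WT value was near the median of the array (-2.24), so the fold depends on the background and is not exact. *Cox7a1*, the heart and muscle isoform of subunit 7A, lay at 2.64 in G9a-KO and 1.19 in WT (2.73-fold higher). Each of these genes has 1 probe set, so neither value could be checked against another.

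The ubiquitous isoform of subunit 7A was not higher. *Cox7a2*, the 7A isoform of most tissues, lay at 5.28 in G9a-KO and 5.44 in WT, and its other probe set differed by -0.11. *Cox7a2l*, a 7A-related protein of respiratory supercomplexes, lay at 4.26 in G9a-KO and 3.92 in WT (1.26-fold higher), and its other probe sets differed by 0.28 and 0.37. *Cox7b* had no single-gene probe set here, so *Cox7b2* could not be set against its ubiquitous relative.

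By the brightest probe set, the other restricted isoforms of these subunits were within 1.3-fold. The heart and muscle isoforms *Cox6a2* (-0.86 in G9a-KO and -1.22 in WT) and *Cox8b* (-1.77 and -1.72) and the lung and hypoxia isoform *Cox4i2* (-1.60 and -1.71) did not pass it. Nor did the testis isoforms *Cox6b2* (1.01 in G9a-KO and 0.73 in WT) and *Cox8c* (0.06 and -0.17), although a dimmer probe set of *Cox8c*, at -1.71 in G9a-KO and -2.16 in WT, was past it (a difference of 0.45). *Cox8b* and *Cox4i2* lay near the array medians (-2.13 in G9a-KO and -2.24 in WT) on both arrays. Their small differences are therefore between dim values and say little about these isoforms. *Ndufa4l2*, a paralogue of *Ndufa4* that low oxygen induces, was lower, at -0.43 in G9a-KO and 0.23 in WT (1.58-fold). *Ndufa4*, now counted as a complex IV subunit, was higher, at 4.62 in G9a-KO and 4.16 in WT (1.38-fold).

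Among the ubiquitous subunits of complex IV, *Cox6c* stood out at 5.68 in G9a-KO and 4.84 in WT (1.79-fold higher), and its other probe set gave 0.82. *Cox8a*, the ubiquitous subunit 8, was just past the threshold, with 4.72 in G9a-KO and 4.33 in WT (a difference of 0.38). *Cox7c*, another small subunit, lay at -0.20 in G9a-KO and -0.77 in WT (1.48-fold higher). Its other probe set lay at -1.61 in G9a-KO and -2.26 in WT, near the array median in WT (a difference of 0.65). Both probe sets of *Cox7c* are far dimmer than those of the other ubiquitous subunits named here, so its fold is less sure. *Cox4i1* (5.83 in G9a-KO and 5.60 in WT), which carries the site for regulation by ATP, and *Cox6a1* (6.21 and 6.30) and *Cox6b1* (4.89 and 5.06) were within 1.3-fold. Over the 19 genes the median was 0.23, with 6 higher (31.6%) and 1 lower (5.26%), against 17.4% and 17.2% of all named genes.

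**Figure D2:**
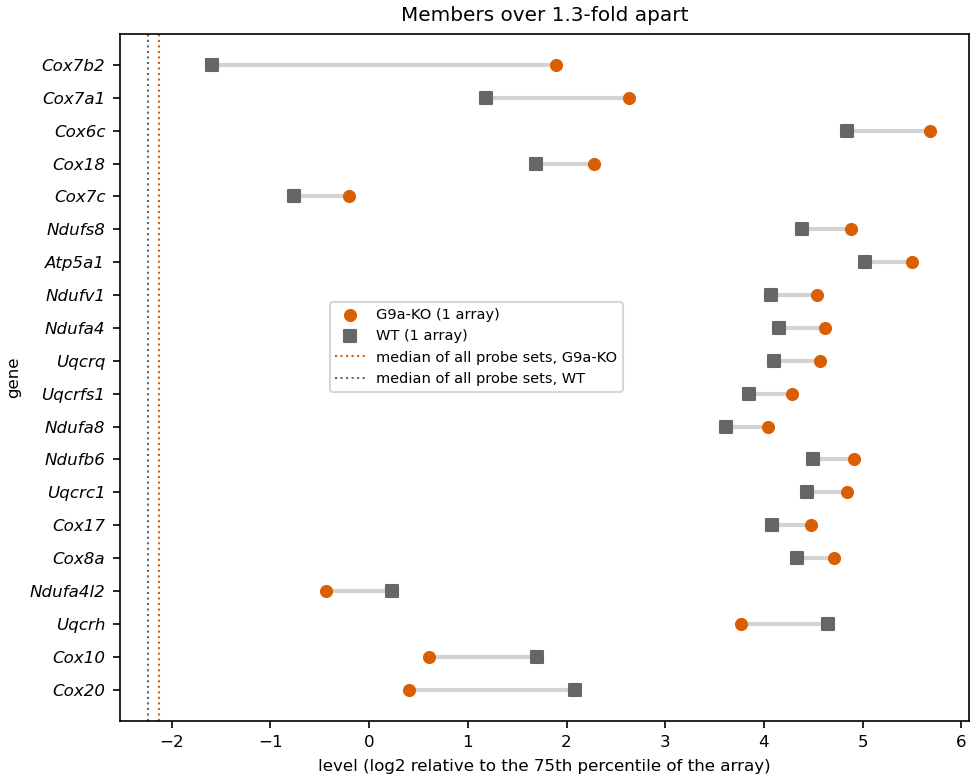
Level (log2 after subtracting the 75th percentile of each array, on the horizontal axis) of the 20 genes over 1.3-fold apart, on the G9a-KO array (orange circles) and the WT array (grey squares), with dotted lines at the median of all probe sets (-2.13 in G9a-KO and -2.24 in WT). *Cox7b2* in WT (-1.59) is the point nearest the dotted lines, and the 4 genes at the bottom are lower in G9a-KO.

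The ATP synthase was the complex with the fewest calls among those with more than 4 genes. Of 17 genes, 1 was higher (5.88%) and 0 lower, against 17.4% and 17.2% of all named genes. The median of the 17 was 0.19, with 13 above 0. The gene past the threshold was *Atp5a1*, the alpha subunit of the F1 head, at 5.50 in G9a-KO and 5.02 in WT (1.39-fold). Its next probe set lay at 4.70 in G9a-KO and 4.66 in WT and a dimmer one at -0.09 and 0.05, so the call rests on 1 probe set and was lost with the mean over probe sets (0.12). The catalytic beta subunit *Atp5b* lay at 5.84 in G9a-KO and 5.58 in WT. The c subunit of the rotor ring is encoded by 3 genes, *Atp5g1* (4.62 in G9a-KO and 4.44 in WT), *Atp5g2* (4.39 and 4.21) and *Atp5g3* (5.70 and 5.62), and all of them were within 1.3-fold. *Atp5k*, the e subunit found where synthases pair, was lowest at 4.24 in G9a-KO and 4.41 in WT. *Atp5c1*, the rotor shaft, differed by 0.19, whereas its dim second probe set, at -1.57 in G9a-KO and -2.91 in WT, differed by 1.33.

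The assembly factors went both ways, with the lowest values of all 89 genes among them. *Cox20*, which guides the mitochondrially encoded subunit 2 into complex IV, lay at 0.41 in G9a-KO and 2.08 in WT (3.19-fold lower), and its other probe set was dim and differed by 0.14. *Cox10*, an enzyme of haem A synthesis, lay at 0.61 in G9a-KO and 1.70 in WT (2.13-fold lower), and its other probe set above the median differed by -0.37. *Cox15*, the next enzyme of haem A synthesis, differed by 0.08. *Cox18*, which inserts subunit 2 into the membrane, was higher, at 2.28 in G9a-KO and 1.69 in WT (1.51-fold), as was the copper chaperone *Cox17* (4.47 in G9a-KO and 4.08 in WT, 1.31-fold). The *Cox17* probe set can bind several transcripts, and a dim one gave 0.06. *Cox11* (-0.04) and *Cox19* (-0.27), which handle copper, and *Cox16* (-0.28) were within the threshold, and the median of the 8 genes was -0.16, against 0.22 for the 81 subunits.

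A list of 40 further assembly factors that the symbol rule leaves out also had a median below 0. Of these, 4 were over 1.3-fold higher (10.0%) and 13 lower (32.5%), against 17.4% and 17.2% of all named genes. The median of the 40 was -0.10. The complex IV copper chaperone *Sco1* was lowest, at -3.11 in G9a-KO and -0.74 in WT. Its G9a-KO value was below the array median, so the 5.14-fold difference is not exact. Subunits and assembly factors were not compared by a test, since 1 array per group allows none.

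The lists of tricarboxylic acid cycle genes and of electron carriers gave larger medians than the 81 subunits (0.22). Of 22 enzymes and regulators of the tricarboxylic acid cycle, 9 passed the threshold upward (40.9%) and 0 downward by the brightest probe set, and the median was 0.36. Of all named genes, 17.4% passed it upward and 17.2% downward. Among the genes called higher, other probe sets above the array median were above 0 for *Idh3a*, *Idh3b*, *Idh3g*, *Suclg2*, *Pdha1* and *Pcx* but gave -0.32 for *Idh2*. Among the genes not called, they reached -0.81 for *Ogdh* and -0.65 for *Dlat* and ran from -0.57 to 2.49 for *Pdk1*. *Pdk4*, a kinase that shuts off pyruvate dehydrogenase, lay at 2.15 in G9a-KO and -1.92 in WT, again from near the background, with a 16.8-fold difference. Among 8 electron carriers and feeders, whose median was 0.34, 4 were higher (50%) and 0 lower, against the same shares of all named genes. This list also holds *Cyc1* of complex III (0.21) and *Ndufab1* of complex I (-0.03), subunits that the symbol rule does not take. Somatic cytochrome c, *Cycs*, lay at 5.42 in G9a-KO and 4.99 in WT (1.35-fold), and the testis gene *Cyct* at 2.97 in G9a-KO and 1.46 in WT (2.85-fold). Medians of other housekeeping families were lower, at -0.10 for 76 mitochondrial ribosomal proteins, 0.07 for 54 cytosolic ribosomal proteins (-0.04 under median centring) and -0.04 for 40 proteasome subunits (0.02 with the mean over probe sets and 0.10 with the probe set of the largest absolute difference).

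The known regulators of the respiratory genes were mostly within 1.3-fold, with 3 of 18 higher, 1 lower and a median of -0.11. The 16.7% higher was near the 17.4% of all named genes, and 5.56% were lower, against 17.2%. *Nrf1* (1.34 in G9a-KO and 1.58 in WT), *Yy1* (4.06 and 3.94), *Gabpa* (3.10 and 2.90) and *Tfam* (2.73 and 2.87), which packs mitochondrial DNA, were within the threshold. Other probe sets above the median gave -1.51 and -0.25 for *Nrf1* and -0.48 to -0.20 for *Yy1*. The coactivator *Ppargc1b* lay at 0.15 in G9a-KO and -0.90 in WT (2.07-fold higher), while *Ppargc1a* was below the median on both arrays (-3.86 and -3.91). *Gabpb1*, the partner of *Gabpa*, was 2.22-fold higher by its brightest probe set, but its other probe set above the median differed by -0.37. *Polg* (1.47-fold higher), the mitochondrial DNA polymerase, and *Twnk* (1.51-fold lower), the helicase that works with it, went in opposite directions.

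**Figure D3:**
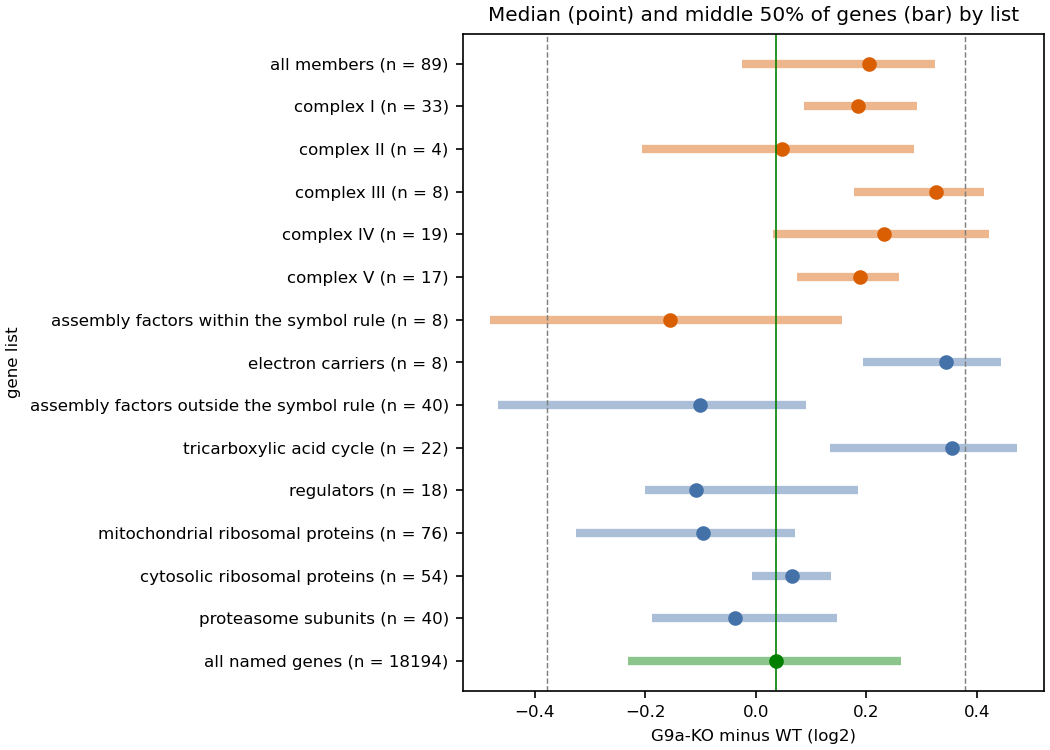
Median difference between G9a-KO and WT (log2, horizontal axis, points) and the range of the middle 50% of genes (bars) for the 89 genes, their complexes and related lists (vertical axis, number of genes in brackets), with the median of all named genes as a green line and 1.3-fold as dashed lines. The tricarboxylic acid cycle (0.36) and complex III (0.33) lie highest of the medians along with the electron carriers (0.34), and both lists of assembly factors lie left of the green line.

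Agreement between probe sets of a gene is the check these arrays allow within themselves. Of the 89 genes, 54 had several single-gene probe sets and 35 had 1. Of the 47 with several above the array median on at least 1 array, 41 had all of them in one direction and 6 did not, namely *Atp5a1*, *Cox5b*, *Ndufa10*, *Ndufb8*, *Sdha* and *Uqcr10*. Over the 72 other probe sets of these 47 genes, 65 differed in the same direction as the brightest. The same share over all named genes was not computed. As 71.9% of the 89 genes lay above 0, part of this agreement would also arise between probe sets of different genes. Probe sets of a gene share the RNA of the same 2 cultures and are no replicates of the genotype.

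**Figure D4:**
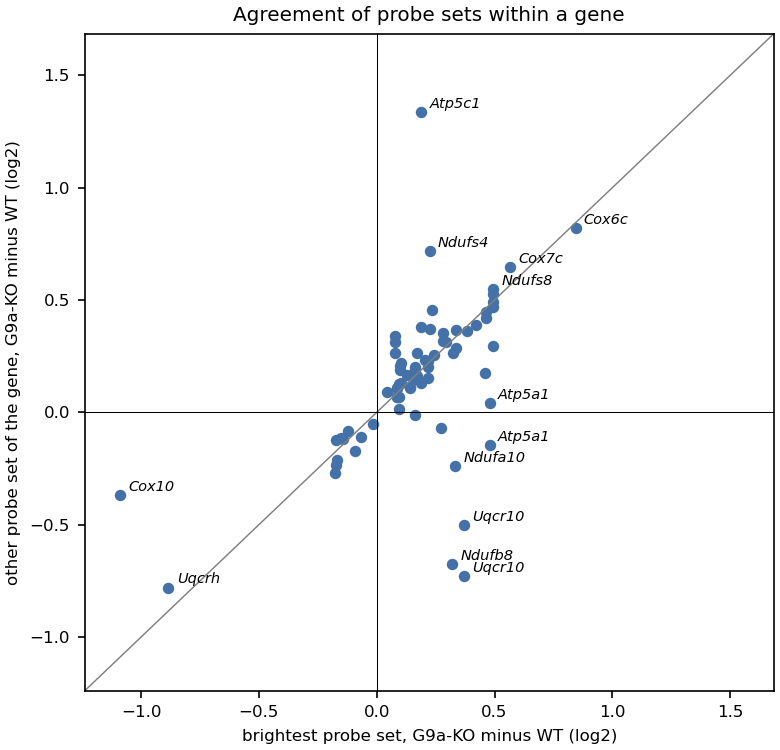
Difference between G9a-KO and WT (log2) by the brightest probe set of a gene (horizontal axis) and by each of its other probe sets above the array median (vertical axis), 72 points of 47 genes, with the line of equal values. *Cox6c*, *Ndufs8* and *Uqcrh* lie close to the line, *Cox10* shows the same direction at a smaller size, and *Uqcr10*, *Ndufb8* and *Ndufa10* lie below 0 on the vertical axis only.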

How the data were processed

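Total RNA of 1 G9a-KO and 1 WT ESC culture was labelled from 200 ng and hybridised to an Affymetrix mouse array each. The authors deposited log2 values, and the submitters' processing notes name RMA and R 3.2.1 (the RMA package version was not stated). RMA forces the arrays to a similar distribution, so a change in total RNA per cell is lost. Following the methods of the study, the 75th percentile of each array (7.31 in G9a-KO and 7.37 in WT) was subtracted. The platform annotation gave a single symbol to 34958 of the 45101 probe sets and several to 932, and 9211 have no name here. All 89 gene IDs matched the RefSeq table of GRCm38.p6. The brightest single-gene probe set stood for a gene. Named are the genes past 1.3-fold, in each complex the highest, lowest and brightest, the *Sdh* genes and isoform sets, and outside the symbol rule *Ehmt2*, *Cyc1*, *Cycs*, regulators and list members past 2-fold. Others named to complete a group were chosen after their values were seen. The members and lists were chosen with earlier results of these data known. With 1 array per group the number of arrays limits the precision, and no test was made. Alternatives were other scalings, probe set filters and probe set rules, the 2-fold threshold and, added after seeing the data, brighter genes only and subunits only. The steps were tested on simulated data, with planted differences well past the threshold and noise smaller than the spread of these arrays. That run does not show how calls or medians of the size reported here behave. Python 3.11.15, pandas 2.3.3 and statsmodels 0.14.6 (lowess, span 0.3) were used.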

Additional observations from a re-analysis of the deposited data

How the results depend on the processing

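No paired analysis was possible because each group has 1 array, and no array could be left out. A list median is called moved here when it changed by over 0.1 or changed sign, and a single gene when it changed by over 0.36, the robust SD of all genes. The number of higher genes (16) was 10 with no shift of the deposited values and 6 under median centring, and that of lower genes (4) was 6 under median centring and 7 with the probe set of the largest absolute difference, which gave 20 higher. Both were 2 at the 2-fold threshold, and 2 were lower without the assembly factors. Median centring put the median of all 89 genes at 0.10, and those of complexes I to V at 0.083, -0.054, 0.22, 0.13 and 0.087 and of the assembly factors at -0.26. Without the probe sets ending in _s_at, _x_at or _a_at, 72 genes were left, 15 of them higher and 6 lower. Of the 16593 named genes left by the same filter, 2869 were higher and 2739 lower. The medians were -0.18 for complex II, 0.063 for complex III and -0.038 for the assembly factors. The mean over probe sets gave -0.047, 0.23 and -0.049 for the same groups, and no shift gave -0.0082 for complex II. Of 339 values of single genes under alternatives, 336 stayed within the tolerance. Many of these could not leave it. Taking no shift and median centring lower every gene by the same 0.06 and 0.10, less than the tolerance. The filter for probe sets above the array median kept the same probe set for each of these genes. This tolerance is near the size of the threshold, and 10 of the 20 calls were lost under at least 1 alternative, among them *Cox17* (0.06 without the probe sets named above), *Uqcrq* (0.18 without them and 0.21 with the mean over probe sets) and *Atp5a1* (0.12 with the mean). The 3 values outside the tolerance came from the mean over probe sets, which gave -0.77 for *Cox20*, -0.49 for *Cox10* and -0.67 for *Ehmt2*. No direction of a gene past 1.3-fold was reversed by an alternative run here. The cause of these changes was not tested.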

Other observations

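Probe sets that carry several gene symbols were left out of every gene result. Of these, 10 include a symbol that the rule takes, and 2 of the 10 were over 1.3-fold apart. Both were higher in G9a-KO, by 0.61 (*Cox14* with another symbol) and 0.41 (*Ndufb4* with its copies). Of all named genes, 17.4% were higher and 17.2% lower past 1.3-fold, and the share over the other probe sets with several symbols was not computed.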
